A study of Mus musculus with 22 samples.

Results

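AMPA-type glutamate receptor genes were followed across 6 cell types of the mouse brain: the 4 pore-forming subunits Gria1, Gria2, Gria3 and Gria4, and 6 auxiliary proteins, Cacng2, Cacng3, Cacng8, Cnih2, Shisa6 and Shisa9. The 10 genes were chosen by symbol, out of 55385 genes in the deposited transcript tables, and all 10 were among the 20843 genes that passed the count filter. Messenger RNA was captured on tagged ribosomes and sequenced, with 3 libraries per cell type. All mice were 6 weeks old and carried Rpl22 Fl/+, the RiboTag allele, in which Cre adds an HA tag to a ribosomal protein so that ribosomes of the Cre-expressing cells can be pulled down from whole tissue. Rbp4-Cre marked both dentate gyrus granule cells, taken from hippocampus, and layer V neurons, taken from cortex. Gabra6-Cre marked cerebellar granule cells, and Dlx6a-Cre marked inhibitory interneurons of the hippocampus, with 2 mice pooled in each library. Astrocytes of the cortex were marked by the line labelled Aldh1-cre, which the methods name as Aldh1l1-cre/ERT2, and microglia of the cortex by Tmem119-cre, and per the methods both lines were induced with tamoxifen. There is no group of untreated or Cre-negative tissue among these libraries, so each cell type was compared with the others.

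AMPA receptors are tetramers of the subunits GluA1 to GluA4, the products of Gria1 to Gria4, and carry most fast excitatory transmission in the brain. Inclusion of GluA2, whose transcript is edited at the pore, keeps calcium out of the channel, and receptors that lack it let calcium through. Auxiliary proteins bind the pore and set trafficking and gating: the TARPs (stargazin, encoded by Cacng2, and its relatives encoded by Cacng3 and Cacng8), the cornichon Cnih2, and the CKAMP proteins encoded by Shisa6 and Shisa9. Each subunit transcript also carries 1 of a pair of mutually exclusive exons, flip or flop, which encode part of the ligand-binding region and alter desensitization.

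The flip and flop exons of Gria1 and Gria4 are shown because in these 2 genes the flip and flop transcripts have last exons of nearly the same length, so that their ratio does not rest on the length of the 3′ end. Their 5′ ends do differ. The first exon has 306 and 125 bases in the flip transcripts of Gria1 and 160 in flop. In Gria4 it has 298 bases in flip and 390 and 333 in the flop transcripts. Capitals mark the bases that differ between flip and flop of the same gene, all sequences run 5′ to 3′ on the coding strand, and all coordinates are of GRCm38. Gria1 lies on the forward strand, with flop at chr11:57309769-57309883 and flip at chr11:57310608-57310722. Gria4 lies on the reverse strand, with flop at chr9:4432773-4432887 and flip at chr9:4427030-4427144.
Gria1 flop: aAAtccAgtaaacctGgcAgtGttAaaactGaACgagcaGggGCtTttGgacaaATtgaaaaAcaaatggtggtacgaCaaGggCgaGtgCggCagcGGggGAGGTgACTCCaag
Gria1 flip: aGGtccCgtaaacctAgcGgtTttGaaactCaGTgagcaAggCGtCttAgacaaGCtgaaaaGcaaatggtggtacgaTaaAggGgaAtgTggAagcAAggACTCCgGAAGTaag
Gria4 flop: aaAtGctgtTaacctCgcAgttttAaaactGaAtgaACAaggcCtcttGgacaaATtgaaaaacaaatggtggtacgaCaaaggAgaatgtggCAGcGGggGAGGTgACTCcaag
Gria4 flip: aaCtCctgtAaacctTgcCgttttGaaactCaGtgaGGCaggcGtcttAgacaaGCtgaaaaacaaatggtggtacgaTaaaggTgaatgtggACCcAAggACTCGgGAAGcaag
Each exon was 115 bases long, and all 4 lie in the coding sequence. The 2 exons of Gria1 differed at 36 bases and were 68.7% identical, and those of Gria4 differed at 31 bases and were 73.0% identical. The same exon was more alike between genes, at 87.8% to 94.8% identity over the 4 genes. The sequences come from the NCBI GRCm38 genome at the exons of the GENCODE M21 annotation.

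The 18 libraries held between 38270477 and 71440915 estimated counts. Interneurons and microglia came only from batch 2. The other 4 types were taken from batch 1, and 1 replicate of each was sequenced again in batch 2. Markers of the labelled type were highest in their own libraries for 4 of 4 dentate gyrus genes, 3 of 3 cerebellar granule cell genes, 8 of 8 interneuron genes, 5 of 5 astrocyte genes and 4 of 4 microglia genes, but for 1 of 4 layer V genes, Fezf2. Other cell types were also visible. All 5 oligodendrocyte markers were highest in the interneuron libraries, where they summed to between 2612 and 2795 TPM against 103 to 400 TPM in the other neurons. All 3 markers of hippocampal pyramidal cells were highest in the dentate gyrus libraries and varied there from 82.9 to 167 TPM in sum. The part of these cells in the results below was not tested. In bulk samples such as these, fewer cells of a type and less RNA per cell cannot be told apart.

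Levels are given as TPM, the length-normalized abundance of the deposited tables summed over a gene's transcripts, so that genes can be set side by side. Differences are given on the log2 scale from edgeR's quasi-likelihood test of the estimated counts, with a standard error (SE) and a p-value adjusted over all genes tested, and a gene was called at an adjusted p of at most 0.05. For the median of 10610 genes present in every library, TPM ran above the scaled counts, relative to layer V neurons, by 0.31 on the log2 scale in interneurons, 0.28 in dentate gyrus, 0.18 in cerebellar granule cells and 0.10 in microglia, and by -0.03 in astrocytes, so the tests and not the TPM decide where small differences are read.

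Gria1 (chr11:57011387-57330244), which encodes GluA1, the subunit best known for activity-dependent delivery to synapses, had the widest range of the 4 pore subunits, with the highest cell type 170 times the lowest. It stood at 577, 617 and 585 TPM in the 3 dentate gyrus libraries and at 663, 694 and 615 TPM in the 3 interneuron libraries. Layer V neurons had 95.4, 85.0 and 95.4 TPM, and cerebellar granule cells 3.98, 3.86 and 3.76 TPM. The dentate gyrus and interneuron libraries overlapped, and both were far above layer V, while the cerebellar granule cells were the lowest of the 6 types and lay below both kinds of glia. Interneurons and dentate gyrus granule cells did not differ in the count test (log2 difference 0.12, SE 0.10, adjusted p = 0.34 from edgeR), whereas dentate gyrus exceeded layer V by 2.42 (SE 0.11, adjusted p = 3e-12). Against the mean of the other 3 neuronal types, cerebellar granule cells were lower by 6.38 on the log2 scale, written as -6.38 (SE 0.13, adjusted p = 6.3e-18).

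Gria2 (chr3:80681450-80802835), whose product GluA2 makes the receptor calcium-impermeable, varied least of the 10 genes, with a ratio of 9.29 between the highest and lowest cell types. Dentate gyrus granule cells had 455, 476 and 437 TPM, and layer V neurons 212, 205 and 219.6 TPM. Interneurons had 144, 154 and 125 TPM, and cerebellar granule cells 69.7, 64.1 and 71.8 TPM. The 4 neuronal types did not overlap with each other in this gene. The order of the first pair was closer in counts than in TPM, since dentate gyrus exceeded layer V by 0.48 (SE 0.08, adjusted p = 2.8e-05) in the count test and by 0.82 when counts were scaled by transcript length, with a mean effective transcript length of 3758 bases in dentate gyrus and 4821 in layer V. Within batch 2, where each of those types has 1 library, that difference was 0.40 (SE 0.15, adjusted p = 0.057). Interneurons, which with dentate gyrus granule cells had the most Gria1, were below layer V in Gria2, with layer V higher by 1.22 (SE 0.08, adjusted p = 3.1e-10).

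Gria3, the X-linked gene of GluA3 (chrX:41400854-41678601), was nearly level in the 3 forebrain types, at 96.1 to 102 TPM in dentate gyrus, 88.2 to 98.2 TPM in layer V and 104 to 111 TPM in interneurons. In cerebellar granule cells it was at 2.69, 1.57 and 1.95 TPM, on 148 to 265 counts per library. The cerebellar libraries lay below every other library, those of glia included, and the log2 difference from the other neurons was -5.66 (SE 0.11, adjusted p = 4.3e-18). Interneurons and dentate gyrus did not differ (0.04, SE 0.09, adjusted p = 0.71), and dentate gyrus against layer V had opposite signs on the 2 scales, with layer V higher in the count test (-0.24, SE 0.09, adjusted p = 0.025) and lower in mean TPM. Both types were taken from batch 1 in that test. Within batch 2, where each of them has 1 library, the value was again -0.24.

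Gria4 (chr9:4417896-4796234), which encodes GluA4, a fast-gating subunit known from cerebellar and interneuron synapses, ran the other way. Cerebellar granule cells had 198, 186 and 202 TPM and interneurons 154, 166 and 151 TPM. Layer V neurons had 42.5, 45.3 and 43.8 TPM, and dentate gyrus granule cells 9.82, 12.0 and 13.5 TPM. The cerebellar libraries lay above every other library, and the dentate gyrus libraries lay below those of every other neuronal type and overlapped with astrocytes (10.96 to 13.2 TPM). Against the other neurons, cerebellar granule cells were higher by 2.22 (SE 0.07, adjusted p = 2.7e-15), interneurons were higher by 1.72 (SE 0.07, adjusted p = 3.1e-13), and dentate gyrus granule cells were at -3.32 (SE 0.10, adjusted p = 2.1e-15). Interneurons were below cerebellar granule cells by a small step of 0.38 (SE 0.09, adjusted p = 0.0012).

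**Figure D1:**
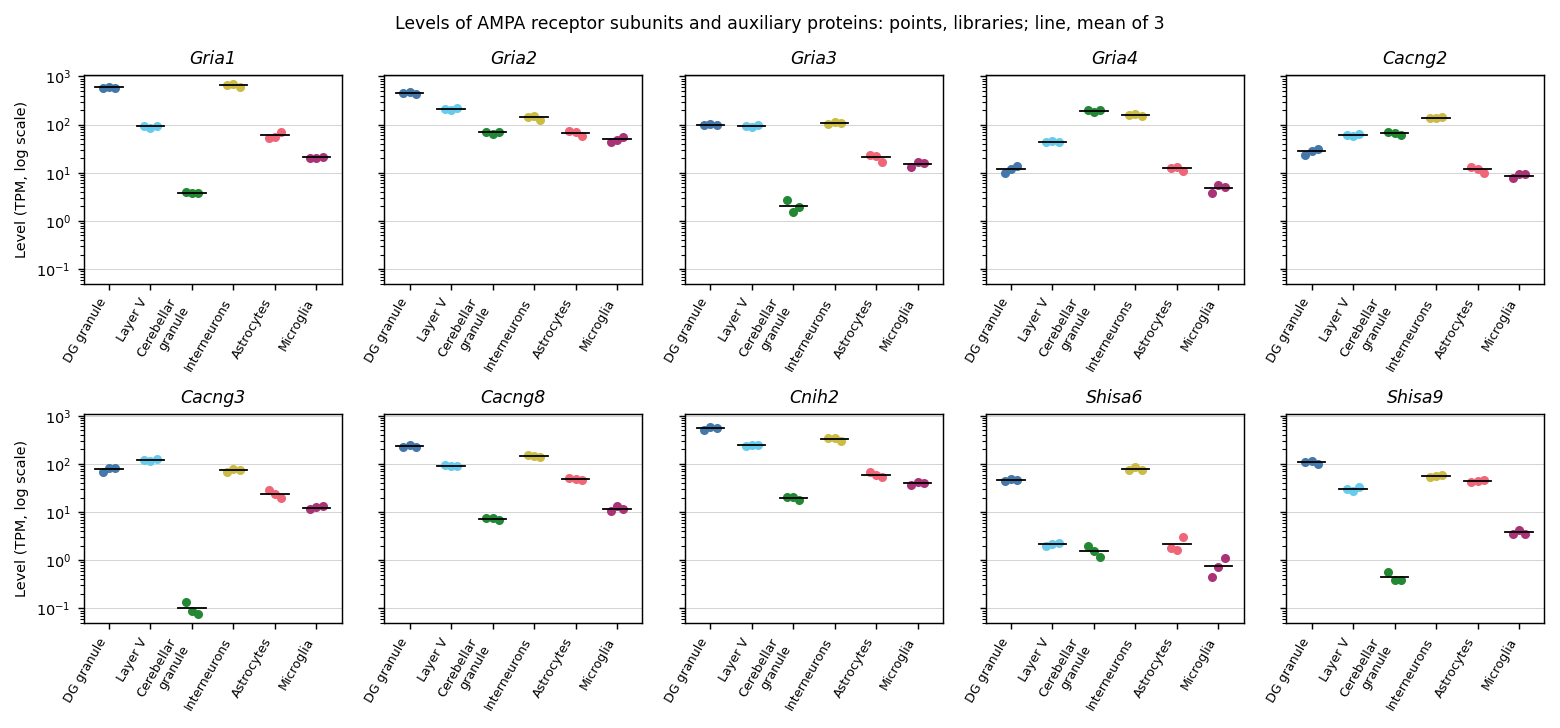
Level of each of the 10 genes in TPM on a log axis, by cell type. Points are the 3 libraries of a cell type and lines their mean; Gria4 is highest in cerebellar granule cells (mean 195 TPM), where Gria1 (3.87 TPM), Gria3 (2.07 TPM), Cacng3 (0.0999 TPM) and Shisa9 (0.452 TPM) are at their lowest.

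As a pool, the 4 pore subunits summed to 1159 ± 41.1 TPM in dentate gyrus granule cells, 1063 ± 64.0 in interneurons, 441 ± 16.7 in layer V neurons and 269.7 ± 12.8 in cerebellar granule cells (SD, n = 3 each). The makeup differed more than the size. Gria1 was the largest part in dentate gyrus, at 51.2% ± 0.48, and in interneurons, at 61.9% ± 0.32. Gria2 was the largest in layer V, at 48.2% ± 0.22, and Gria4 in cerebellar granule cells, at 72.4% ± 0.32. The share of the leading subunit in each neuronal type did not overlap with its share in any other neuronal type. Gria2 made up 39.3% ± 0.73 of the dentate gyrus pool, 25.4% ± 0.28 of the cerebellar pool and only 13.3% ± 0.63 of the interneuron pool, which was the lowest share of the 6 types. These are shares of RNA on tagged ribosomes, not of assembled receptors.

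**Figure D2:**
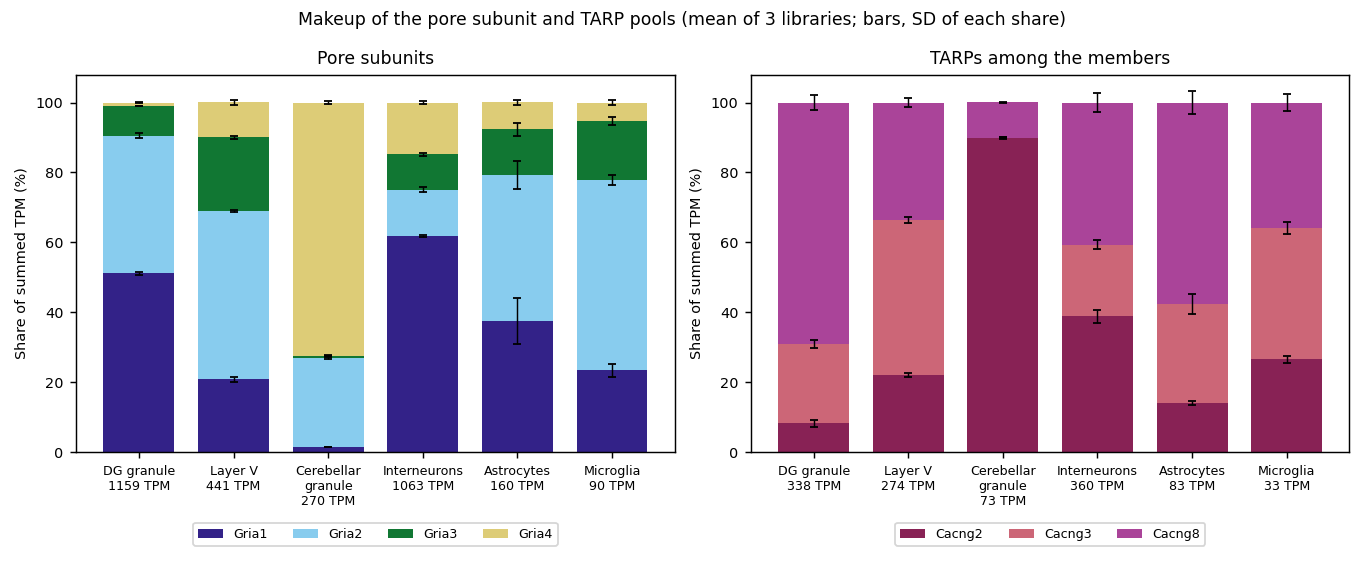
Makeup of the pore subunit RNA (left) and of the 3 TARP genes among the members (right), as percent of their summed TPM by cell type; bars are SD over 3 libraries and the summed TPM stands under each column. Gria1 takes 51.2% in dentate gyrus and 61.9% in interneurons, Gria4 72.4% in cerebellar granule cells, and Cacng2 89.8% of the cerebellar pool of these 3 TARP genes.

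Exon choice in Gria1 divided the neurons. The flip form made up 31.1%, 31.4% and 31.5% of the flip and flop transcripts in dentate gyrus and 29.3%, 28.6% and 27.0% in interneurons. It made up 40.2%, 37.0% and 40.4% in layer V and 83.2%, 79.5% and 87.5% in cerebellar granule cells. Cerebellar granule cells, with the least Gria1, were therefore the only neurons in which flip exceeded flop, at 3.22 TPM of flip and 0.644 TPM of flop. No cerebellar library overlapped with those of another neuron. Flop in cerebellar granule cells rested on as few as 59 estimated counts in a library. Flip also exceeded flop in both kinds of glia, at 67.2% ± 3.55 in astrocytes and 54.3% ± 2.15 in microglia. In limma's test of the log2 ratio of flip to flop over the 12 neuronal libraries, cerebellar granule cells were higher than the other neurons by 2.74 (SE 0.11, adjusted p = 7.1e-08), dentate gyrus was lower (-1.05, SE 0.11, adjusted p = 8e-05) and interneurons were lower (-1.32, SE 0.11, adjusted p = 2.6e-05). Layer V was lower by a smaller amount (-0.37, SE 0.11, adjusted p = 0.023), a call that was lost without layer V replicate 1 (-0.40, adjusted p = 0.052) or replicate 2 (-0.31, adjusted p = 0.11). The flip and flop transcripts of Gria1 end at nearly the same place, with last exons of 2802 and 2801 bases, so this ratio does not rest on the length of the 3′ end. Their first exons and starts differ, as do those of Gria4, and the part of the 5′ end in these ratios was not tested.

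In Gria4 the flop form led in all 6 types among transcripts with 1 of the exons. In the neurons these held only part of the gene's TPM, from 35.8% in layer V to 52.8% in interneurons. The flip share in the neurons ranged from 6.71% ± 1.17 in cerebellar granule cells through 10.4% ± 6.56 in dentate gyrus and 12.1% ± 1.49 in interneurons to 14.2% ± 1.23 in layer V (SD, n = 3). In glia, which did not enter the usage test, it was 30.2% ± 6.65 in astrocytes and 21.2% ± 1.61 in microglia. Cerebellar granule cells, with the most Gria4, had a lower ratio of flip to flop than the other neurons (log2 difference -1.20, SE 0.23, adjusted p = 0.0022 from limma), and the other 3 types did not pass the test (adjusted p from 0.061 in layer V to 0.99 in interneurons). Without dentate gyrus replicate 3 the dentate gyrus ratio was higher (0.92, SE 0.20, adjusted p = 0.0084, against 0.59 in all libraries) and that of layer V passed (0.50, adjusted p = 0.046), as it did without dentate gyrus replicate 2 (0.71, adjusted p = 0.013). The cerebellar libraries overlapped with those of dentate gyrus, of which 1 was lower, at 4.41%. Dentate gyrus flip was at 0.513 ± 0.302 TPM, close to the 0.5 TPM that the test adds to flip and flop. By mean, cerebellar granule cells thus had the highest flip share of the neurons in Gria1 and the lowest in Gria4.

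For Gria2 and Gria3 the flip and flop transcripts also differ in their 3′ ends. The last exon is 7265 bases in the flop transcript of Gria2 and 920 in flip, and in Gria3 it is 246 in flop and 2262 in flip, so choice of exon and choice of 3′ end cannot be told apart in these values. The flip share of Gria2 was 82.1% ± 1.73 in dentate gyrus, 77.5% ± 1.63 in interneurons, 67.4% ± 0.99 in cerebellar granule cells and 60.9% ± 0.47 in layer V. Layer V was the lowest (-1.03, SE 0.10, adjusted p = 2.4e-05 from limma) and dentate gyrus the highest (1.05, SE 0.10, adjusted p = 3.5e-05). In Gria3 the transcripts with a single exon of the pair held 24.6% to 29.2% of the gene's TPM in the neurons, and most of the rest, between 61.6% and 72.9%, was given to a transcript that holds both exons and is annotated as a target of nonsense-mediated decay. Of the Gria3 transcripts with 1 exon, flip took 90.3% ± 2.07 in layer V and 53.3% ± 4.90 in interneurons.

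**Figure D3:**
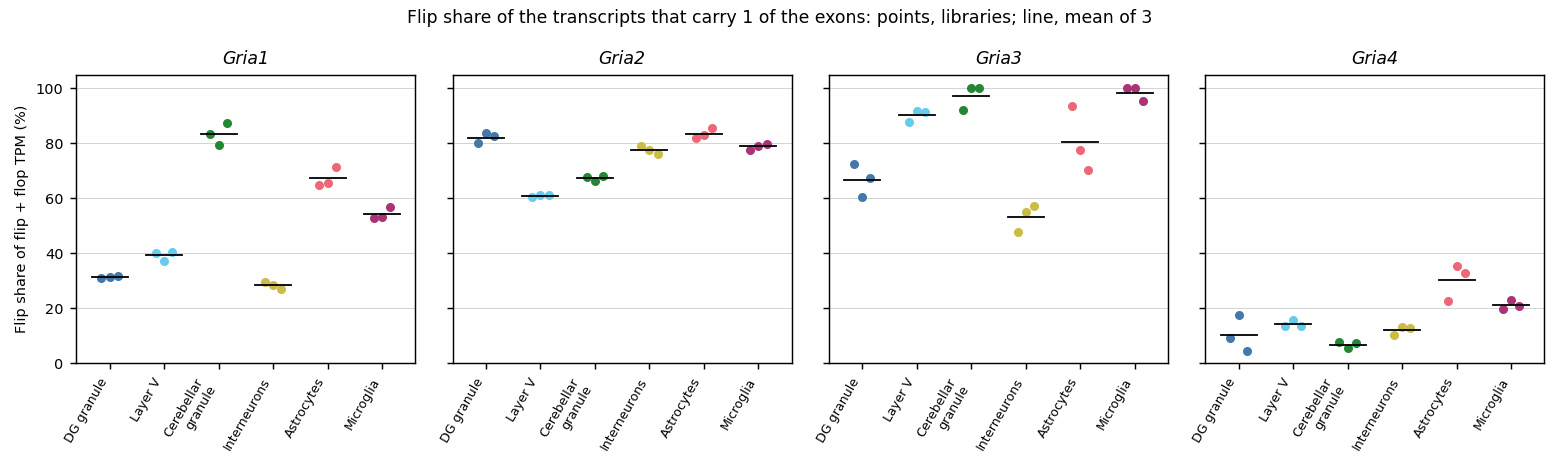
Flip share of the summed flip and flop TPM for each pore subunit gene, in percent; points are libraries and lines the mean of 3. Gria1 flip runs from 28.3% in interneurons to 83.4% in cerebellar granule cells, while Gria4 flip stays between 6.71% and 14.2% in neurons.

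Usage was also tested for single transcripts of the members, the flip and flop transcripts above included. A rise in 1 transcript of a gene lowers the ratio of its others, so the counts below are not of independent shifts. Of 20 transcripts tested in 7 of the genes, 16 differed in usage in cerebellar granule cells (background 41.4% of 27424 transcripts and exon ratios), 13 in dentate gyrus (32.8%), 14 in interneurons (21.1%) and 10 in layer V (40.3%). A Gria4 transcript of 2338 bases that carries neither exon held 64.2% of Gria4 TPM in layer V, 56.0% in dentate gyrus, 51.3% in cerebellar granule cells and 47.2% in interneurons, with layer V higher (0.75, SE 0.10, adjusted p = 0.00015) and interneurons lower (-0.57, SE 0.10, adjusted p = 0.002). Of the flop transcripts of this gene, that of 5441 bases was at 0.262% ± 0.453 in layer V against 23.8% to 29.1% in the other neurons (-4.71, SE 0.16, adjusted p = 4.1e-08). The flop transcript of 5207 bases held 30.4% in layer V and 10.4% to 22.4% in the other neurons (0.94, SE 0.15, adjusted p = 0.0006). Kallisto assigns reads shared by transcripts of a gene by likelihood, and no measure of that uncertainty was used here.

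Among the TARPs, each neuronal type but interneurons was led by a different gene. Cacng2 (chr15:77991748-78120028) encodes stargazin, the protein missing in the ataxic stargazer mouse. It was at 134, 139 and 146 TPM in interneurons, 68.5, 67.1 and 61.3 TPM in cerebellar granule cells and 60.3, 59.3 and 62.5 TPM in layer V. In dentate gyrus it was at 23.3, 28.4 and 31.7 TPM. The interneuron libraries lay above and the dentate gyrus libraries below every other neuronal library, while cerebellar granule cells and layer V overlapped and did not differ (-0.04, SE 0.08, adjusted p = 0.62). Interneurons were higher than the other neurons by 1.39 (SE 0.06, adjusted p = 3.9e-13), and dentate gyrus was at -1.69 (SE 0.07, adjusted p = 2.8e-13).

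Cacng3 (chr7:122670492-122769393), encoding the TARP γ-3, was highest in layer V, at 123, 115 and 126 TPM, and was at 69.0, 80.5 and 81.5 TPM in dentate gyrus and 67.6, 78.5 and 73.9 TPM in interneurons. In cerebellar granule cells it was close to absent, at 0.133, 0.0880 and 0.0782 TPM, which rested on 6 to 9 counts per library. The layer V libraries lay above all others, and those of dentate gyrus and interneurons overlapped (-0.10, SE 0.07, adjusted p = 0.25). Layer V exceeded the other neurons by 4.2 (SE 0.07, adjusted p = 3.1e-18), a figure in which the near-zero cerebellar level weighs heavily, and exceeded the next type, dentate gyrus, by 1.19 (SE 0.07, adjusted p = 1.1e-10).

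Cacng8 (chr7:3390683-3415648), encoding γ-8, the TARP typical of hippocampus, was highest in dentate gyrus, at 225, 249.7 and 226 TPM, followed by interneurons at 155, 148 and 136 TPM and layer V at 96.9, 89.2 and 89.8 TPM. Cerebellar granule cells had 7.69, 7.61 and 6.71 TPM. None of these 4 types overlapped. Dentate gyrus exceeded interneurons by 0.74 (SE 0.09, adjusted p = 5.2e-07) and interneurons exceeded layer V by 0.40 (SE 0.09, adjusted p = 0.00055), the latter being 0.33 (SE 0.14, adjusted p = 0.072) within batch 2. Of the 3 TARP genes together, Cacng8 took 69.0% ± 2.21 in dentate gyrus, Cacng3 took 44.3% ± 0.85 in layer V, and Cacng2 took 89.8% ± 0.17 in cerebellar granule cells (SD, n = 3). In interneurons Cacng8 at 40.7% ± 2.63 and Cacng2 at 38.9% ± 1.86 overlapped. The pool of these 3 genes was 360 TPM in interneurons, 338 in dentate gyrus, 274 in layer V and 73.1 in cerebellar granule cells. It leaves out the other TARP genes, of which Cacng7 stood above Cacng2 in level in cerebellar granule cells.

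Cnih2 (chr19:5092868-5098521), the cornichon that slows deactivation of the receptor and helps its export from the endoplasmic reticulum, was the most abundant of the 6 auxiliary genes in each forebrain type. It was at 498, 592 and 548 TPM in dentate gyrus, 352, 351 and 293 TPM in interneurons and 240.2, 246 and 241 TPM in layer V, against 20.8, 20.4 and 17.4 TPM in cerebellar granule cells. Dentate gyrus stood above all other libraries and the cerebellum below all others, glia included (36.7 TPM and up). The step from interneurons to layer V did not pass the test (0.16, SE 0.08, adjusted p = 0.087), although their TPM did not overlap. Cerebellar granule cells were at -4.12 (SE 0.09, adjusted p = 1.2e-17) against the other neurons.

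Of the CKAMP genes, Shisa6 (chr11:66211725-66525964) encodes a protein that keeps receptors from desensitizing, and Shisa9 (chr16:11984113-12270902) encodes CKAMP44, known from dentate gyrus granule cells, where it slows recovery from desensitization. Shisa6 was at 73.9, 86.6 and 74.1 TPM in interneurons and 44.3, 47.9 and 45.6 TPM in dentate gyrus. It was at 1.97, 2.15 and 2.32 TPM in layer V, and at 1.93, 1.57 and 1.16 TPM in cerebellar granule cells. The gene was thus high in both types taken from the hippocampus and low in the other neurons, with dentate gyrus above astrocytes, the third of the 6 types, by 4.39 (SE 0.10, adjusted p = 5.4e-17). Interneurons and dentate gyrus did not differ in counts (0.11, SE 0.09, adjusted p = 0.30), but did when counts were scaled by transcript length (0.73, SE 0.22, adjusted p = 0.0075). The scaling matters here because a short processed transcript of 285 bases held 38.8% of the Shisa6 TPM in interneurons, at 25.5, 34.7 and 31.0 TPM, and 2.79% in dentate gyrus. Its share rests on few reads, with as few as 72 estimated counts per library in interneurons and 3 in dentate gyrus. The whole gene had at least 7048 and 5611. The transcript of 7252 bases was at 42.2 TPM in interneurons and 38.4 TPM in dentate gyrus. Usage of the transcript of 285 bases was higher in interneurons than in the other neurons (2.12, SE 0.28, adjusted p = 0.00043 from limma).

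Shisa9 was at 109, 115 and 102 TPM in dentate gyrus, 53.7, 55.6 and 57.7 TPM in interneurons and 30.2, 28.0 and 32.8 TPM in layer V. In cerebellar granule cells it was at 0.582, 0.383 and 0.391 TPM, on 35 to 67 counts. The 4 neuronal types did not overlap, with dentate gyrus highest. It exceeded interneurons by 0.76 (SE 0.10, adjusted p = 3.8e-06), and cerebellar granule cells were at -6.74 against the other neurons (SE 0.15, adjusted p = 1.9e-17). Astrocytes had 41.4, 43.6 and 46.1 TPM of Shisa9, above layer V by 0.59 (SE 0.10, adjusted p = 5.4e-05) and not different from interneurons (0.07, SE 0.10, adjusted p = 0.56). A Shisa9 transcript of 3421 bases held 23.0% of the gene in dentate gyrus and 2.34% in interneurons.

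Set against the mean of the other 3 neuronal types, the members moved as follows. In dentate gyrus granule cells 8 of 10 were higher and 2, Gria4 and Cacng2, were lower, where 33.9% of all genes tested were called higher and 29.1% lower, and the median log2 difference was 2.21 over the members and 0.06 over all genes. In interneurons 9 were higher and Gria2 alone was lower (-0.70, SE 0.07, adjusted p = 3.4e-08), where 36.3% and 27.3% of all genes were called, with medians of 1.77 and 0.09. In layer V 7 were higher, including Cacng2 (0.18, SE 0.06, adjusted p = 0.015), Gria4 (-0.62, SE 0.08) and Shisa6 (-2.46, SE 0.09) were lower, and Gria1 was not called (-0.08, SE 0.09, adjusted p = 0.46), where 36.3% and 30.4% of all genes were called, with medians of 0.86 and 0.07. Of these 7, 5 (Gria2, Cacng2, Cacng8, Cnih2 and Shisa9) had a lower mean TPM in layer V than the mean of the other neurons, such as Cacng2 with 60.7 against 77.8 TPM and Cnih2 with 242 against 299 TPM, so their sign rests on averaging logs. Within batch 1, which lacks interneurons, Gria4 was not called (-0.09, adjusted p = 0.24) and Gria1 was higher (1.12, adjusted p = 8.2e-08), and within batch 2 Cacng2 was not called (0.15, adjusted p = 0.21). In cerebellar granule cells Gria4 alone was higher, 8 were lower and Cacng2 was not called (0.12, SE 0.06, adjusted p = 0.079), where 34.7% and 42.4% of all genes were called, with medians of -4.29 and -0.21. Cacng2 was called in cerebellar granule cells (adjusted p from 0.012 to 0.048) when dentate gyrus replicate 3, cerebellar replicate 3, any 1 interneuron replicate or microglia replicate 3 was left out, and its layer V call was lost (adjusted p from 0.055 to 0.08) without layer V replicate 3, any 1 interneuron replicate or microglia replicate 3. All 8 were lower by more than 1 on the log2 scale, from -1.78 for Gria2 to -9.54 for Cacng3, and for 9 of the 10 genes no cerebellar library overlapped with another neuronal library in TPM, as was the case for 45.9% of all genes. Each difference is relative to a mean of log values, so a gene near 0 in cerebellar granule cells is raised in the other 3 comparisons, which share those libraries. Interneurons and batch cannot be told apart in the 18 libraries, but within batch 2 interneurons again had 9 members higher and 1 lower, with Gria1 at 3.27 (3.30 in the 18 libraries), Gria4 at 1.56 (1.72) and Shisa6 at 3.11 (3.10).

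When the 6 cell types were put in order of mean TPM for each gene, 40 of 50 neighbouring pairs differed in the same direction in the count test and 10 did not. Of all genes, the share called either way between neuronal types was 59.8% for layer V against interneurons, 62.3% for dentate gyrus against layer V, 62.8% for dentate gyrus against interneurons, 73% for dentate gyrus against cerebellar granule cells, 74.3% for cerebellar granule cells against interneurons and 75.2% for layer V against cerebellar granule cells. Against astrocytes it was 72.4% for interneurons, 73.4% for dentate gyrus, 76.7% for layer V and 82% for cerebellar granule cells, against microglia 79% for dentate gyrus, 80.2% for interneurons, 82.6% for layer V and 85% for cerebellar granule cells, and between the glia 75.4%. The count for the members takes only neighbours in each gene's own order, called in the direction of that order. The shares over all genes take fixed pairs of cell types in either direction, so they are not a like measure. The order was also set from the same libraries that were then tested, so agreement in direction was partly built in. The count of 40 of 50 thus has no background here. Dentate gyrus was highest for Gria2, Cacng8, Cnih2 and Shisa9, interneurons for Gria1, Gria3, Cacng2 and Shisa6, layer V for Cacng3 and cerebellar granule cells for Gria4. The lowest type was cerebellar granule cells for 6 genes and microglia for Gria2, Gria4, Cacng2 and Shisa6. The pairs that did not differ in the direction of the TPM order, beside those already given, were cerebellar granule cells and astrocytes for Gria2 (0.06, SE 0.08, adjusted p = 0.47), and astrocytes and layer V for Shisa6. In the latter, layer V was higher in the count test (-0.33, SE 0.10, adjusted p = 0.0054) at nearly equal TPM. With counts in place of TPM, the highest type was the same for 9 of 10 genes, the exception being Gria3, which was then highest in layer V.

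Neurons as a class had more of the members than glia. Of the 10, 9 were higher in the mean of the 4 neuronal types than in the mean of astrocytes and microglia, against 37.4% of all genes, with a median log2 difference of 1.53 where that of all genes was -0.14. The differences ran from 0.26 (SE 0.08, adjusted p = 0.0041) for Shisa9 to 3.12 (SE 0.07, adjusted p = 7.6e-18) for Shisa6. Cacng3 was lower in neurons (-0.25, SE 0.07, adjusted p = 0.004), where 45.2% of all genes were, although its mean TPM was higher in neurons, and here the near-zero cerebellar level enters the mean of logs. Of the members, Cacng2 alone had every neuronal library (23.3 TPM and up) above every glial library (13.1 TPM and down), where 22.1% of all genes had no overlap in either direction. Cerebellar granule cells or layer V reached glial levels in the others, except Gria4, in which dentate gyrus did. Within batch 1, where neither interneurons nor microglia are present, 5 were higher and 3 lower, and Gria1 (-0.28, adjusted p = 0.0092) and Shisa9 (-2.2, adjusted p = 8e-12) were then lower in neurons than in astrocytes, while Gria3 was not called (0.07, adjusted p = 0.42). Within batch 2, 8 were higher and 1 lower, and Shisa9 was not called (0.18, adjusted p = 0.096).

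Astrocytes had more of all 10 genes than microglia, where 40.5% of all genes were called higher, and no member's libraries overlapped in TPM between the 2 glial types, as was the case for 74% of all genes. Shisa9 differed most (3.69, SE 0.12, adjusted p = 4.5e-15), from 41.4 to 46.1 TPM in astrocytes against 3.47 to 4.28 TPM in microglia. Cacng8 followed (2.10, SE 0.09, adjusted p = 3.3e-13), with 45.6 to 50.2 TPM against 10.4 to 13.7 TPM, then Shisa6 (1.88, SE 0.11) and Gria1 (1.63, SE 0.11, adjusted p = 1.3e-10), with 52.8 to 70.7 TPM against 20.7 to 21.7 TPM. The other 6 differed by 0.48 (Gria2) to 1.10 (Gria4). Within batch 2, which holds 1 astrocyte library, all 10 were again higher, by 0.48 (Cacng2) to 3.63 (Shisa9).

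Neuronal RNA was present in the glial libraries, so the glial levels of the members were set beside those of genes that mark neurons. As a percent of the layer V mean, the vesicular transporter Slc17a7 stood at 17.1% in astrocytes and 9.04% in microglia, Camk2a at 18.7% and 9.85%, Rbfox3 at 14.9% and 14.0%, Snap25 at 10.3% and 3.91%, and Syt1 at 18.03% and 7.24%. In astrocytes all 10 members had means above those of these 5 markers, though the ranges of Cacng2, Cacng3, Gria3 and Cnih2 overlapped with that of Camk2a. The ranges of Cacng2, Cacng3 and Gria3 also overlapped with those of Slc17a7 and Syt1. Markers of interneurons stood far higher than these 5 in astrocytes. The 8 interneuron markers summed to 283 to 326 TPM in astrocytes and 83.5 to 93.1 TPM in microglia, against 308 to 347 TPM in layer V. Shisa9 was at 144% of layer V, Shisa6 at 100.3%, Gria1 at 65.2%, Cacng8 at 52.0%, Gria2 at 31.5%, Gria4 at 28.0%, Cnih2 at 24.8%, Gria3 at 22.5%, Cacng3 at 19.7% and Cacng2 at 19.3%. In microglia the members ranged from 10.2% for Cacng3 to 35.3% for Shisa6, the latter at 0.449 to 1.10 TPM, with Gria2 at 23.1% and Gria1 at 22.9%. Shisa6 was also low in astrocytes, at 2.152 TPM against 2.145 TPM in layer V, with libraries from 75.9% to 142%. The part of neuronal RNA in the glial levels was not tested.

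**Figure D4:**
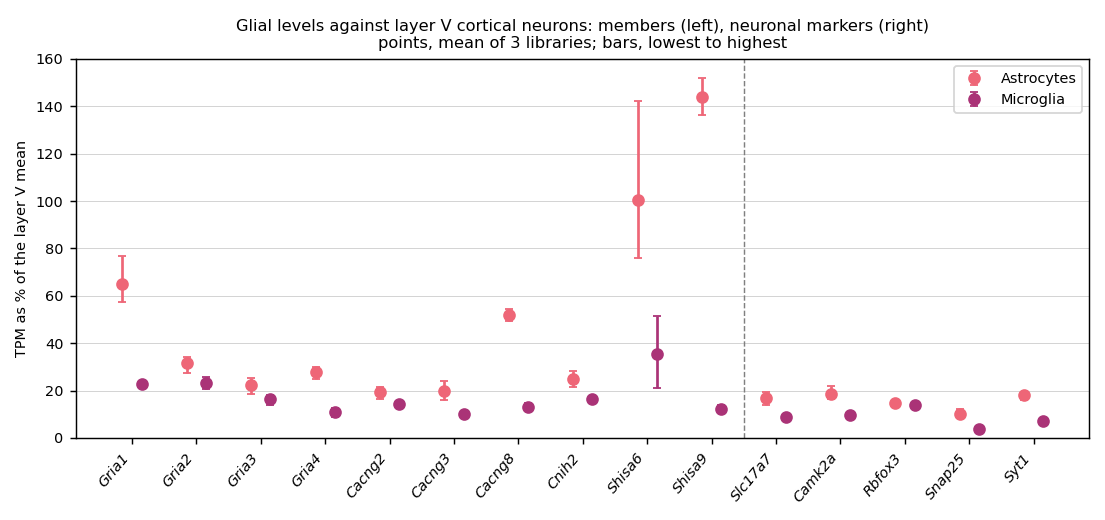
Level of each member, and of 5 neuronal marker genes to the right of the dashed line, in astrocytes and microglia as percent of the layer V mean TPM. Points are means of 3 libraries and bars run from the lowest to the highest. Shisa9 (144%), Shisa6 (100.3%), Gria1 (65.2%) and Cacng8 (52.0%) in astrocytes stand above these 5 markers, which include no interneuron marker. Shisa6 is low in both, at 2.152 TPM in astrocytes and 2.145 TPM in layer V.

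Beyond the members, 28 further genes of the AMPA receptor pathway were followed: 3 other TARPs, 6 other auxiliary proteins, 5 proteins of receptor assembly in the endoplasmic reticulum, 6 scaffold and trafficking proteins, 6 extracellular partners and 2 RNA editing enzymes. Against glia, 25 were higher in neurons, where 37.4% of all genes were, 2 were lower (Cacng4 and Nptx2), where 45.2% were, and Olfm2 was not called. Cerebellar granule cells had 12 higher and 13 lower than the other neurons, where 34.7% and 42.4% of all genes were, with a median of -0.09, against -0.21 for all genes and -4.29 for the members. The other counts of higher and lower genes were 16 and 11 in dentate gyrus (33.9% and 29.1% of all genes), 15 and 11 in layer V (36.3% and 30.4%), and 15 and 11 in interneurons (36.3% and 27.3%).

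In cerebellar granule cells the largest rise among these genes was that of Shisa8, the CKAMP relative of Shisa6 and Shisa9. It was at 88.7 ± 3.69 TPM there (SD, n = 3) against 0.414 to 4.97 TPM in the means of the other neurons (6.07, adjusted p = 3.5e-17). The TARP gene Cacng7 was at 78.2 ± 6.31 TPM, not different from the other neurons (-0.07, adjusted p = 0.18), and above Cacng2, at 65.6 ± 3.84 TPM, in level. Cnih3, the relative of Cnih2, was at 0.154 ± 0.055 TPM against 27.9 to 122 TPM in the other neurons (-8.84, adjusted p = 2.7e-17), and so was low together with Cnih2. The secreted olfactomedin Olfm3 was at 372 ± 14.8 TPM (4.66, adjusted p = 2.3e-16), while Olfm2 at 0.277 TPM and the neuronal pentraxin Nptx2 at 0.05004 TPM rested on 9 to 20 and 2 to 5 counts per library. Both editing enzymes were higher than in the other neurons. These were Adarb1, which edits the pore site of the Gria2 transcript, at 180 ± 4.66 TPM (1.23, adjusted p = 6.5e-16), and Adar at 80.6 ± 2.31 TPM (0.12, adjusted p = 0.0096).

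In interneurons, Grip1, a scaffold that binds GluA2 and GluA3, was at 70.0 ± 2.84 TPM (4.25, adjusted p = 4.7e-18), and the TARP gene Cacng4 at 41.3 ± 2.74 TPM (3.71, adjusted p = 1.3e-16). Oligodendrocyte markers were also highest in these libraries, and their part in the Cacng4 level was not tested. The pentraxin Nptx1, at 19.6 ± 4.85 TPM, and the pentraxin receptor Nptxr, at 109.7 ± 1.38 TPM, were lower than in the other neurons (-4.25, adjusted p = 3.5e-14, and -2.13, adjusted p = 3.3e-14). Layer V neurons had the most Nptx2, at 73.5 ± 3.10 TPM (5.35, adjusted p = 4.2e-18), and with dentate gyrus the most Cnih3, at 110.4 ± 1.43 TPM against 122 ± 17.9 TPM. Dlg4, which encodes the scaffold PSD-95, was higher in dentate gyrus (0.92) and layer V (0.94) and lower in cerebellar granule cells (-1.11) and interneurons (-0.75).

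**Figure D5:**
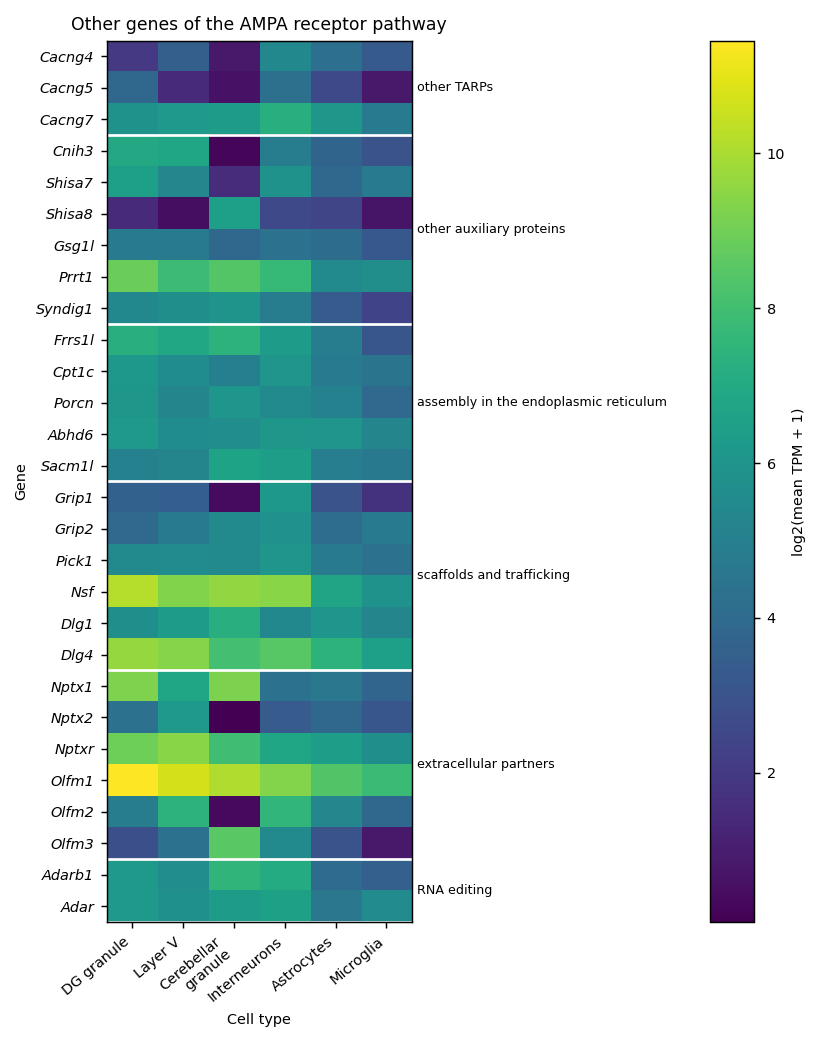
Mean level of the 28 other pathway genes in each cell type, as log2(TPM + 1), grouped by role; colour gives the level. Shisa8 (88.7 TPM) and Olfm3 (372 TPM) stand out in cerebellar granule cells, where Cnih3 (0.154 TPM), Olfm2 (0.277 TPM) and Nptx2 (0.05004 TPM) are near 0.

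The genes whose pattern over the 18 libraries was most like each member were found by Pearson's r of log2(TPM + 1). The points are libraries of 6 cell types, so r mostly describes the order of those 6 types, and it is given without a test. Gria1 was most like Rasgrf2 (r = 0.99), Gpr12 (0.985) and E430024P14Rik (0.982). Gria2 was most like Plppr4 (0.988), Dgat2 (0.986) and Agap2 (0.986), and Gria3 like Dlgap2 (0.996), Mn1 (0.993) and Ly6h (0.993). Gria4 was most like Elavl2 (0.996), Fstl5 (0.995) and 9330182L06Rik (0.991). For the auxiliary genes the nearest were Podxl2 for Cacng2 (0.993), Cck for Cacng3 (0.996), 1700087I21Rik for Cacng8 (0.993), Lrrtm1 for Cnih2 (0.997), Stk32b for Shisa6 (0.975) and St6galnac5 for Shisa9 (0.995). Between members, Gria3 and Cacng3 (0.98) and Cacng8 and Cnih2 (0.97) were the most alike, Gria4 was closest to Cacng2 (0.91) and least like Cacng3 (-0.26).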

How the data were processed

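Ribosome-bound mRNA of 6 cell types was sequenced in 22 libraries. Per the submitters' processing notes, adapters were removed by cutadapt 3.5, and kallisto 0.46.2 gave transcript abundances for the GENCODE M24 transcriptome (GRCm38, per the methods). The authors deposited estimated counts, not normalized, and length-normalized TPM per transcript. The kit was stranded. Both were summed here over the transcripts of each gene, and counts were rounded. Each of 18 replicates entered once, from batch 1 where it was sequenced in both batches, and the 4 repeats served as alternatives. Gene differences came from edgeR 4.0.16 (quasi-likelihood, TMM, 1 fit of 6 types, at least 10 counts in 3 libraries) in R 4.3.3 and usage from limma 3.58.1 on log2((TPM + 0.5) / (TPM of the gene's other transcripts + 0.5)), for genes at 1 TPM or more in all 12 neuronal libraries and transcripts of at least 5% share in 3 of them. This left out Cacng3 and Shisa9, and Cacng2 has 1 transcript. Ratios of flip to flop were taken as log2((flip TPM + 0.5) / (flop TPM + 0.5)). Adjusted p-values are Benjamini-Hochberg. Levels carry SD over 3 libraries. The p-values rest on the spread between libraries within cell types, estimated over all types of a fit and moderated across genes or transcripts. DESeq2 1.42.0 was an alternative. Genes were named by a fixed list: the members, 28 pathway genes, cell type markers, the 3 genes most like each member, and transcripts with at least 20% of a member's TPM in a cell type. The members and lists were chosen with earlier results of these data known. On simulated counts for the cerebellar comparison, with 19692 genes tested, edgeR recovered 100 of 100 2-fold and 100 of 100 4-fold changes and called 8 unchanged genes. There, only genes with a mean of at least 100 counts were changed, the spread was fixed, and all other genes were flat over the 6 types. The real comparison, with most genes called and some members near 0, was not simulated. A library labelled male in batch 2, layer V replicate 1, had Xist at 2.13 TPM and Ddx3y at 0.034 TPM, like its batch 1 library, which is labelled female.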

Additional observations from a re-analysis of the deposited data

How the results depend on the processing

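Over all alternatives, 1638 of 1660 member differences kept their direction and their side of the threshold, 9 lost and 9 gained a call and 4 changed direction, and of 1688 transcript ratios 1621 kept both, 32 lost and 34 gained a call and 1 changed direction. DESeq2, upper-quartile scaling, length-scaled counts, no filter on low counts and all 22 libraries with batch as a term changed no call among the 60 member differences. Upper-quartile scaling moved the median of all genes to -0.24 for neurons against glia and to -0.30 for cerebellar granule cells. Within batch 1, which by construction lacks interneurons and microglia, neurons against glia had 5 members higher and 3 lower, with Gria1 at -0.28, Cacng8 at -0.07 (adjusted p = 0.23) and Shisa9 at -2.2. In the same batch layer V had 1 member lower and Gria1 at 1.12 (adjusted p = 8.2e-08). Cerebellar granule cells had 2 members higher with at least 50 counts in 3 libraries, with the batch 2 repeats and within batch 1, since Cacng2 passed the threshold (0.15, adjusted p = 0.037, then 0.18, adjusted p = 0.013, then 0.70, adjusted p = 2e-07). Leaving out 1 library gave 9 and 1 for neurons against glia, 8 and 2 for dentate gyrus, 6 to 7 and 2 for layer V, 1 to 2 and 8 for cerebellar granule cells, 9 and 1 for interneurons, and 10 and 0 for astrocytes against microglia, with 40 to 41 neighbouring pairs. The cerebellar Cacng2 call appeared without dentate gyrus replicate 3, cerebellar granule cell replicate 3, any 1 interneuron replicate or microglia replicate 3, and the layer V Cacng2 call was lost without layer V replicate 3, any 1 interneuron replicate or microglia replicate 3. Members' transcripts called under the same omissions numbered 11 to 17 in cerebellar granule cells, 12 to 14 in dentate gyrus, 12 to 15 in interneurons and 8 to 12 in layer V, where a share of at least 1% gave 16. The Gria3 ratio of flip to flop in cerebellar granule cells turned to 0.97 (adjusted p = 0.0029) with a pseudocount of 0.1 TPM. The layer V Gria1 ratio was not called with a pseudocount of 1 TPM (-0.25) or with the batch 2 repeats (-0.26). The Gria4 ratio passed under the same 2 settings in dentate gyrus (0.94, adjusted p = 0.0029, and 0.79, adjusted p = 0.005) and layer V (0.59, adjusted p = 0.025, and 0.57, adjusted p = 0.021). The causes were not tested.

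Replicate numbers are shared between cell types, the labels tie them to no shared litter or day, and not every same-numbered pair correlated, so the libraries were analysed as unpaired. Of 45 same-numbered pairs, 20 had a correlation over 0.1 (median 0.0866, from -0.0747 to 0.216), and the own number correlated best in 55 of 90 combinations, where 30 would fall there by chance, which is a hint of pairing from the data and not from the design. With the replicate number as a block, 60 of 60 member differences and 96 of 96 transcript ratios kept their call, and the counts of members higher and lower were again 9 and 1 for neurons against glia, 8 and 2 in dentate gyrus, 7 and 2 in layer V, 1 and 8 in cerebellar granule cells, 9 and 1 in interneurons and 10 and 0 in astrocytes. Depth limits Cacng3, Gria3 and Shisa9 in cerebellar granule cells and Shisa6 in microglia, at 6 to 9, 148 to 265, 35 to 67 and 94 to 141 counts per library.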
